A study of Mus musculus with 4 samples.

Results

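The Tmem92 cluster is a run of 6 genes on mouse chromosome 11, Gm11545, Tmem92, Gm11546, Gm11543, Gm11544 and A430060F13Rik. Its members were taken as every probe on the array that carries one of these 6 gene names, which gave 8 of 39429 probes, and 6 of 30199 names on the array. Both Gm11544 and A430060F13Rik had 2 probes and the other 4 genes had 1. The genes were chosen from their high expression on the Rif1 siRNA arrays described here, so their levels and differences are given as a description, with no test.

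The cells were E14tg2a, a line of mouse embryonic stem (ES) cells. One-colour Agilent arrays were hybridised with RNA of untreated cells (0 h), of cells harvested 72 h after transfection with control siRNA, and of cells harvested 48 h or 72 h after transfection with siRNA against Rif1, a regulator of replication timing and of the choice of DNA break repair. Per the study's methods the Rif1 siRNA cells received 2 siRNAs against Rif1 together, mRif1#2 and NC#1, the latter aimed at its untranslated end. The only control siRNA array used here was harvested at 72 h. There was 1 array per group and no replicate, so no difference below has a p-value, and both Rif1 siRNA comparisons share 1 control array.

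Tmem92 is one of the 2C genes, which are switched on in the 2-cell mouse embryo when the zygote starts its own transcription. In ES cell cultures 2C genes are silent in most cells and active in a rare and transient fraction, the 2C-like cells. Tmem92 codes for a predicted membrane-spanning protein. Gm11543, Gm11544, Gm11545 and Gm11546 are predicted genes named by number, and A430060F13Rik is known from a full-length cDNA. The RefSeq table for GRCm38.p6 held all 6 members. It called A430060F13Rik a miscellaneous RNA and the other 5 protein-coding, and it also gave A430060F13Rik as a synonym of Gm11545. A bulk array cannot tell a larger share of expressing cells from more RNA per cell.

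A value below is an expression level, the spot's processed signal divided by the 75th percentile of its array, unless it is called a fold or a log2 difference. Probes differ in brightness for reasons of sequence, so levels are compared between arrays and never between probes. The software's own spot error is not a biological error. On the Rif1 siRNA arrays it was at most 10.4% of the signal for the 7 member probes detected there. A signal that the scanner software did not call well above background is called dim, and a fold against it is given as a lower bound.

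All member probes lie on the minus strand. The first 30 of the 60 bases of each are shown in mm9 order along the chromosome, because these sequences are what each level was read from. A probe of the expressed sequence tag CV783874, which is no member, lies inside the cluster and is shown with them. No letters are in capitals.
Gm11545 (chr11:94616520-94616579): gtcagacatgcacatacactggacatccat
Tmem92 (chr11:94638552-94638611): ctgtcttgtcaacctacattgtatctgtct
Gm11546 (chr11:94658500-94658559): aaacaggtttcccttttctactgctggttg
CV783874 (chr11:94673579-94673638): taaaccatacagggactaagtttcaatagc
Gm11543 (chr11:94690200-94690259): gctgtgacaatggatgctgccctgaaagaa
Gm11544, first probe (chr11:94706518-94706577): acttttttaagaactggggttggctgtcgt
Gm11544, second probe (chr11:94707128-94707187): ttgtttgtcatctgtggcacaataaggcac
A430060F13Rik, first probe (chr11:94722072-94722131): agagtttgaagactgaactgcacagactct
A430060F13Rik, second probe (chr11:94769243-94769302): gttggcctaaaacccaaggcagccactaat
The probes are not copies of one another. Over the 45 pairs of the 10 probes placed in the cluster, the longest run of bases shared by a pair was 9. None of the member probes had a word of 16 bases in common with any of the 39419 probes elsewhere on the array.

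Tmem92 had the largest measured difference of the members. It read 0.0811 without transfection and 0.159 with control siRNA. After Rif1 siRNA it read 3.74 at 48 h and 3.68 at 72 h, and the spot was well above background on all 4 arrays. Both Rif1 siRNA arrays stood far above the other pair and close to each other. The level at 72 h was 23.1-fold that with control siRNA, a log2 difference of 4.53 with a spot error of 0.21. At 48 h it was 23.4-fold. Against untreated cells the folds were larger, 45.4 at 72 h and 46.1 at 48 h.

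Gm11545, the member nearest to Tmem92 on the other side from the rest, had the smallest measured difference. Untreated cells read 0.110 and control siRNA cells 0.152, and Rif1 siRNA cells read 1.05 at 48 h and 1.01 at 72 h. It too was well above background everywhere, and it had the same order of arrays as Tmem92, with the Rif1 siRNA arrays on top. The fold against control siRNA was 6.63 at 72 h (log2 difference 2.73, spot error 0.21) and 6.88 at 48 h.

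Gm11543, Gm11544 and A430060F13Rik form the right-hand end of the cluster. Gm11543 was at 0.0199 in untreated cells, where it was dim, at 0.0431 with control siRNA, at 0.642 at 48 h and at 0.621 at 72 h. The first Gm11544 probe was at 0.0225 (dim), 0.0413, 0.741 and 0.734 on the same arrays. The first A430060F13Rik probe was at 0.0229 (dim), 0.0379, 0.706 and 0.735. All these probes were dim in untreated cells, weak with control siRNA and bright on both Rif1 siRNA arrays. Against control siRNA at 72 h the fold was 14.4 for Gm11543, 17.8 for Gm11544 and 19.4 for A430060F13Rik, and at 48 h it was 14.9, 17.9 and 18.6. These folds rest on a weak control signal. With normexp background correction, which models the background of each array, they were 7.67, 8.15 and 8.34 at 72 h, beside 17.6 for Tmem92 and 5.18 for Gm11545.

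Gm11546 and the second Gm11544 probe were dim on both arrays without Rif1 siRNA. Gm11546 was at 0.00694 without transfection, 0.00698 under control siRNA, 0.0758 at 48 h and 0.0868 at 72 h. The second Gm11544 probe, 550 bases from the first, was at 0.00478, 0.00319, 0.0655 and 0.0608. Each went from dim to detected, so only a bound can be given. Gm11546 was at least 5.47-fold higher at 72 h and at least 4.78-fold at 48 h, and the second Gm11544 probe at least 3.83-fold and at least 4.13-fold. The lowest level called well above background was 0.0236 without transfection and 0.0159 with control siRNA, against 0.00779 at 48 h and 0.00543 at 72 h of Rif1 siRNA, so detection itself reached lower on the Rif1 siRNA arrays. The part of this in the passage from dim to detected was not tested. With normexp the Gm11546 bound was 1.98-fold at 72 h and 1.84-fold at 48 h, and that of the second Gm11544 probe 2.0-fold and 2.17-fold.

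The second A430060F13Rik probe behaved unlike the first. Its levels were 0.00601, 0.00401, 0.00195 and 0.00159 in the order untreated, control siRNA, 48 h and 72 h. It was dim on all 4 arrays, failed the filter on low values and has no fold. It lies 47.1 kb from the first probe of this gene, outside the interval that was used to delimit the cluster, whereas the RefSeq model of A430060F13Rik is 26.6 kb long. Both probes therefore cannot lie in that model.

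**Figure D1:**
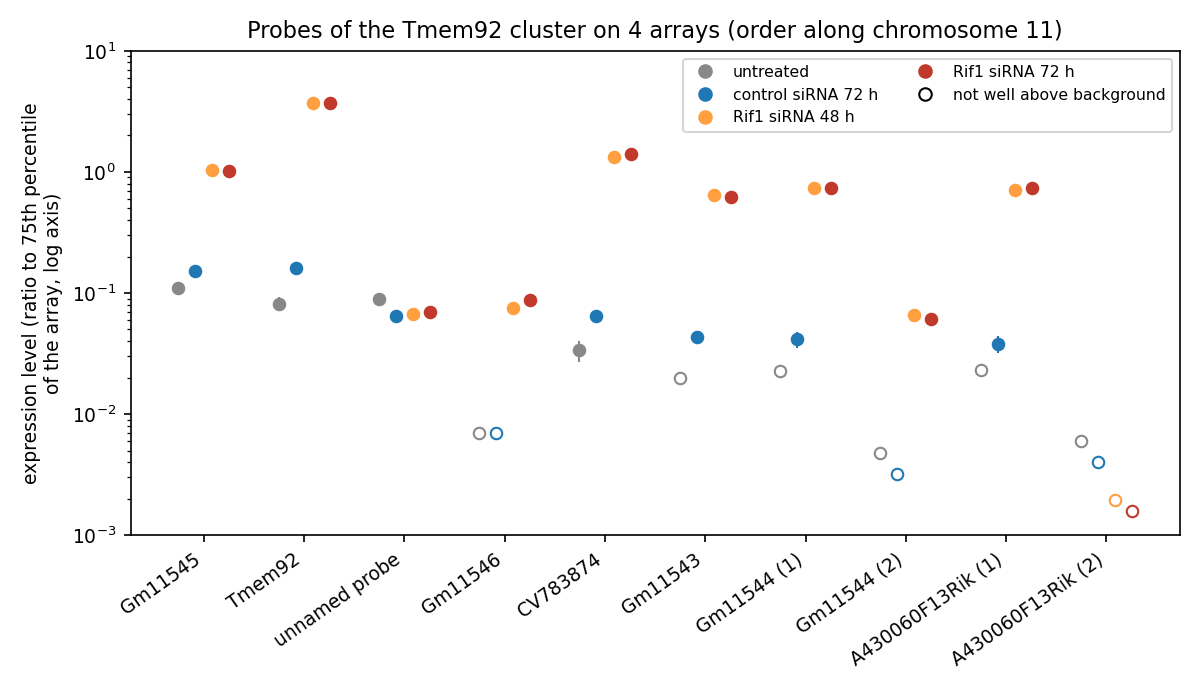
Expression level (ratio to the 75th percentile of the array, log axis) of the 8 member probes and 2 other probes between them on 4 arrays, ordered along chromosome 11; (1) and (2) mark the first and second probe of a gene. Filled points were well above background, open points were not, and bars on filled points are the software's spot error; 7 member probes and CV783874 are higher on both Rif1 siRNA arrays than on either other array, and the second A430060F13Rik probe is open on all 4.

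Of the 8 member probes, 2 were well above background in untreated cells, 5 with control siRNA, and 7 on each Rif1 siRNA array. Over all probes the share well above background also differed, at 58.8% without transfection and 62.8% with control siRNA, and at 71.5% (48 h) and 74.1% (72 h) with Rif1 siRNA. The 7 that were detected passed the filter on low values. Against control siRNA at 72 h, 7 of these 7 were over 2-fold higher, 5 by a measured value and 2 by a bound. Over the whole array 2.82% of 27735 probes were over 2-fold higher in that comparison. At 48 h the count was again 7 of 7, where 3.17% of the array was over 2-fold higher. The genes were picked on this comparison, so nothing is read from either count.

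The median log2 difference of the 7 probes, bounds included, was 3.85 at 72 h and 3.90 at 48 h. Over all probes with a value or a bound it was -0.05 at each time. With normexp the members' medians were 2.94 and 3.0. Among 24312 probes measured on both arrays at 72 h, Tmem92 had the 31st largest difference, A430060F13Rik the 81st, the first Gm11544 probe the 97th, Gm11543 the 118th and Gm11545 the 181st. The genes were picked as high on these arrays, so nothing is read from these medians and ranks. The 2 bounds in the medians come from probes detected only on the Rif1 siRNA arrays. The array's distribution had a small second peak between log2 differences of 4 and 5. Tmem92, A430060F13Rik and the first Gm11544 probe lay in that range, and Gm11543 (3.85) and Gm11545 (2.73) lay below it.

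Within the cluster the measured log2 differences at 72 h ran from 4.53 (Tmem92) through 4.28 (A430060F13Rik), 4.15 (Gm11544) and 3.85 (Gm11543) to 2.73 (Gm11545). The steps between the first 4 were 0.25, 0.13 and 0.30, about the size of the spot error of each difference, which was 0.21 to 0.27. These neighbours in the order were not clearly apart by that measure. The step down to Gm11545 was 1.12. Tmem92 was first and Gm11545 last of the 5 at 48 h too, and with normexp as well. The steps depend on the background correction. With normexp the log2 differences at 72 h were 4.14, 3.06, 3.03, 2.94 and 2.37 in the same order, which sets Tmem92 apart from the next member and brings Gm11545 nearer to Gm11543.

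**Figure D2:**
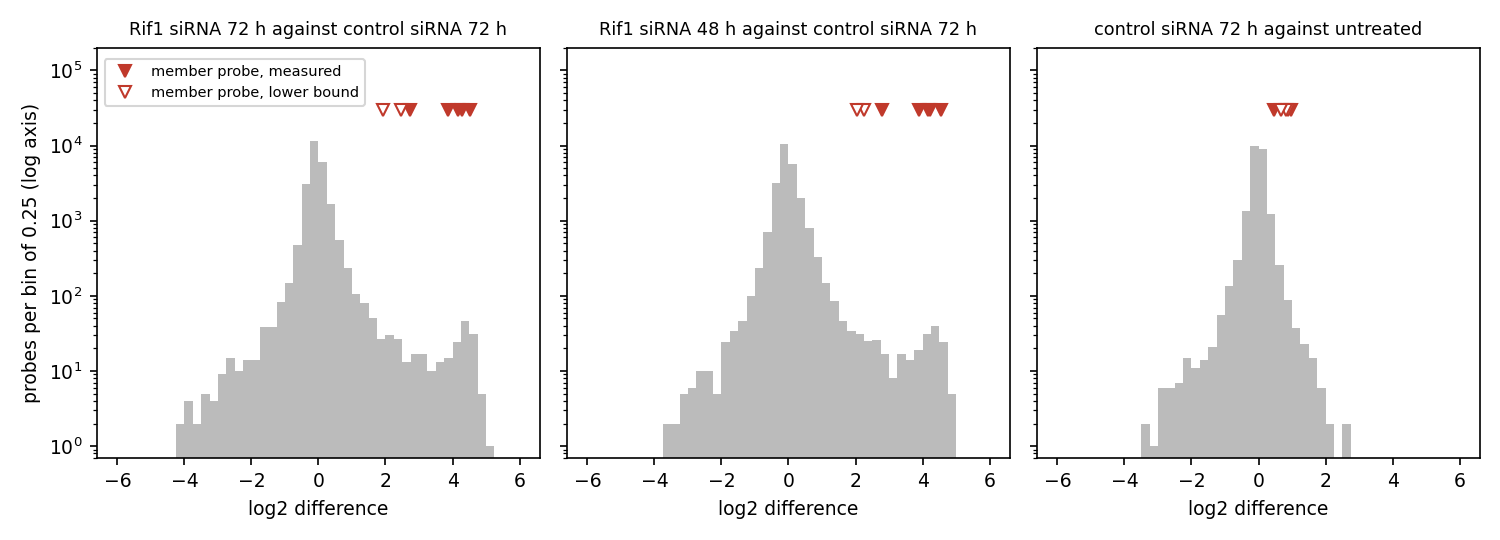
Number of probes (log axis) per bin of 0.25 in log2 difference, for all measured probes that passed the filter, in 3 comparisons; red triangles mark the member probes, filled where measured and open where the value is a lower bound. In both Rif1 siRNA comparisons the measured members lie between 2.73 and 4.55, and in control siRNA against untreated cells all lie below 1.

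Control siRNA itself came with a smaller difference from untreated cells. Tmem92 was 1.97-fold higher (0.159 against 0.0811) and Gm11545 1.38-fold. Gm11543 was at least 1.83-fold higher, the first Gm11544 probe at least 1.75-fold and the first A430060F13Rik probe at least 1.61-fold. The direction was the same in these 5 probes, and 0 of the 7 passed 2-fold, where 0.584% of the array did. The median log2 difference of the 5 was 0.81, beside 0.00 over all probes. Under normexp Gm11544 was at least 1.15-fold higher and Tmem92 1.63-fold. With quantile normalization Tmem92 reached 2.01-fold.

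Levels at 72 h and 48 h of Rif1 siRNA were close. The log2 difference of 72 h from 48 h was -0.02 for Tmem92, -0.05 for Gm11545 and for Gm11543, and 0.06 for A430060F13Rik. The widest were 0.20 for Gm11546, which is 1.14-fold, and -0.11 for the second Gm11544 probe. Of the 7 probes 0 passed 2-fold higher, against 0.49% of the array. Spot errors of these differences were 0.20 to 0.21, so none of the 7 moved beyond its spot error.

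The Rif1 probe (chr2:51977508-51977567) read 5.55 without transfection, 5.42 under control siRNA, 2.15 at 48 h and 4.15 at 72 h. Its log2 difference from control siRNA was -1.34 at 48 h and -0.39 at 72 h. Rif1 signal was thus nearer to the control at 72 h, while the cluster's levels at 72 h were much as at 48 h.

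The 7 member probes over 2-fold higher and CV783874 spanned 105.6 kb, with 14.9 to 22.0 kb from one gene's probe to the next. CV783874, between Gm11546 and Gm11543, was at 0.0336 without transfection, 0.0647 under control siRNA, 1.34 at 48 h and 1.39 at 72 h. It was 21.5-fold higher than control siRNA at 72 h and 20.6-fold at 48 h, beside 14.4-fold and 14.9-fold for Gm11543 and the lower bounds for Gm11546. The other non-member probe inside, A_55_P2128047, has no gene name and lies on the plus strand (chr11:94653631-94653690) between Tmem92 and Gm11546. It read 0.0884, 0.0643, 0.0665 and 0.0695, which is 1.08-fold at 72 h and 1.03-fold at 48 h. The plus-strand probe therefore did not follow the minus-strand probes on either side of it. Unlike the member probes, it had a word of 16 bases in common with 2 probes elsewhere on the array. Whether this affects its levels was not tested.

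Outside the cluster the nearest gene detected on all arrays on the left was Xylt2, a xylosyltransferase of proteoglycan synthesis, 90.5 kb from the Gm11545 probe. That probe read 0.306, 0.323, 0.254 and 0.294, and the other Xylt2 probe, slightly farther out, read 4.70, 5.33, 4.45 and 5.20. Neither followed the cluster. To the right the nearest was Col1a1, a chain of type I collagen, 91.0 kb from the first A430060F13Rik probe and 43.8 kb from the second, which was dim. It read 0.340, 0.341, 0.493 and 0.601, which is 1.76-fold at 72 h. Col1a2, which codes for the partner chain on another chromosome, read 0.316, 0.309, 0.451 and 0.545. Both collagen genes were higher on the Rif1 siRNA arrays, by far less than the cluster.

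Within 1 Mb on either side the array had 77 probes of 57 other gene names, of which 68 passed the filter. At 72 h, where 2.82% of the array was over 2-fold higher, 1 of them was over 2-fold higher and 0 were lower. That one was 1 of 3 probes of Wfikkn2, a secreted protease inhibitor, at 0.0184 (dim), 0.0195 (dim), 0.0282 and 0.0401, a bound of 2.06-fold that did not pass 2-fold with normexp or quantile normalization. The other 2 Wfikkn2 probes were dim on all 4 arrays and failed the filter. At 48 h, where 3.17% of the array was over 2-fold higher, 0 were over 2-fold in either direction. The 60 measured neighbours ranged from -0.47 to 0.82 in log2 difference at 72 h, with a median of -0.11. The highest of these was 0.82 for Col1a1, where the members' lowest measured difference was 2.73 and their lowest bound 1.94. The members were picked as high on these arrays and the neighbours were not, so nothing is read from this gap.

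**Figure D3:**
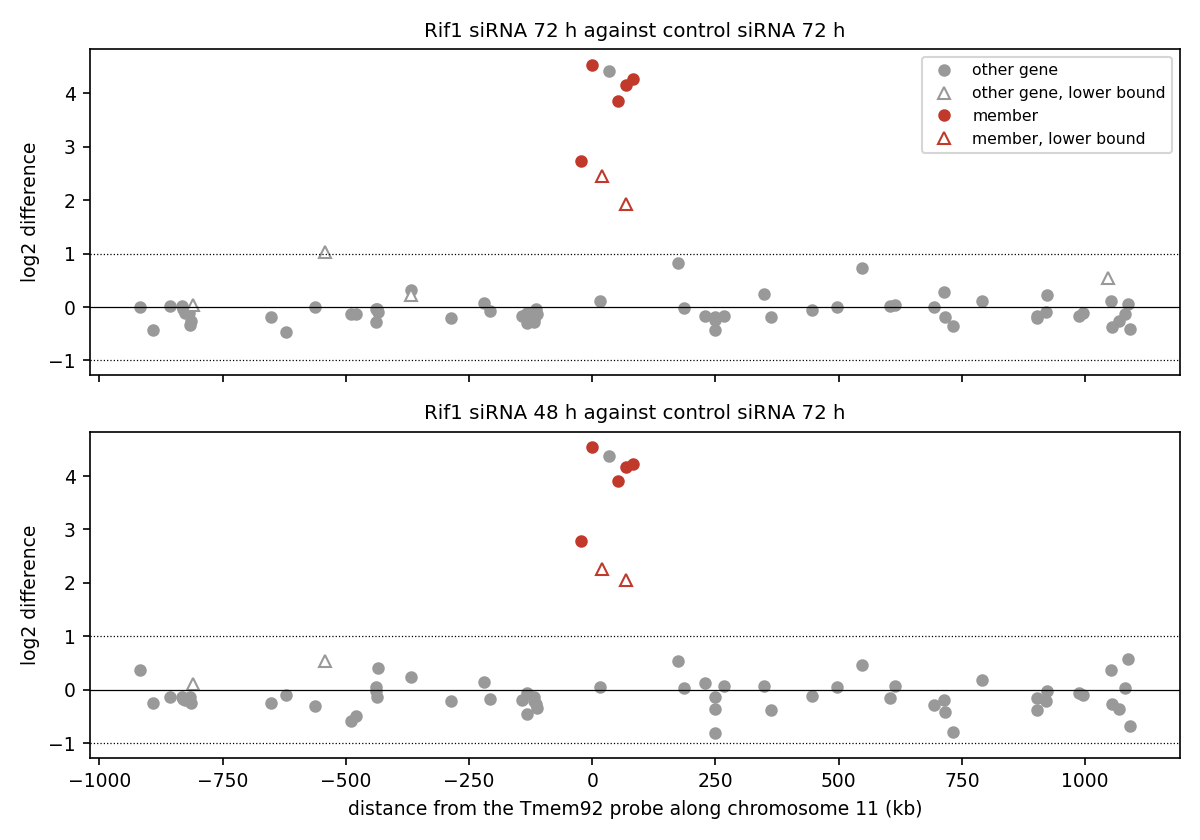
Log2 difference from control siRNA at 72 h (top) and 48 h (bottom) against distance from the Tmem92 probe in kb, for the probes that passed the filter within 1 Mb of the outermost members. Red points are member probes, grey points other genes, open triangles lower bounds, and dotted lines mark 2-fold. The 7 member probes and CV783874 stand above all others within 105.6 kb.

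The genes with the most similar pattern lay on other chromosomes. Likeness was the root mean square difference from Tmem92 of log2 levels over the 4 arrays, each probe centred on its own mean, among 22517 probes detected on all 4. The median over those probes was 2.58. The closest was the predicted transcript ENSMUST00000105763 on chromosome 4, at 0.0440. Gm2016 followed at 0.0534, Gm8300 at 0.0571, AK155468 at 0.0576, AA684185 at 0.0594, Gm21319 at 0.0628 and the deubiquitinase gene Usp17lb at 0.0689. A second Gm8300 probe and 2 probes of A430089I19Rik made up the 10, which ended at 0.0793. Gm2016, Gm8300 and Gm21319 lie on chromosome 12, and Usp17lb and AK155468 on chromosome 7. CV783874 was 12th at 0.0841. Gm11545 was 125th at 1.03, and the other members were not detected on all arrays and could not be placed. With 4 arrays that fall into a low and a high pair, many probes can look alike, and no p is given.

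**Figure D4:**
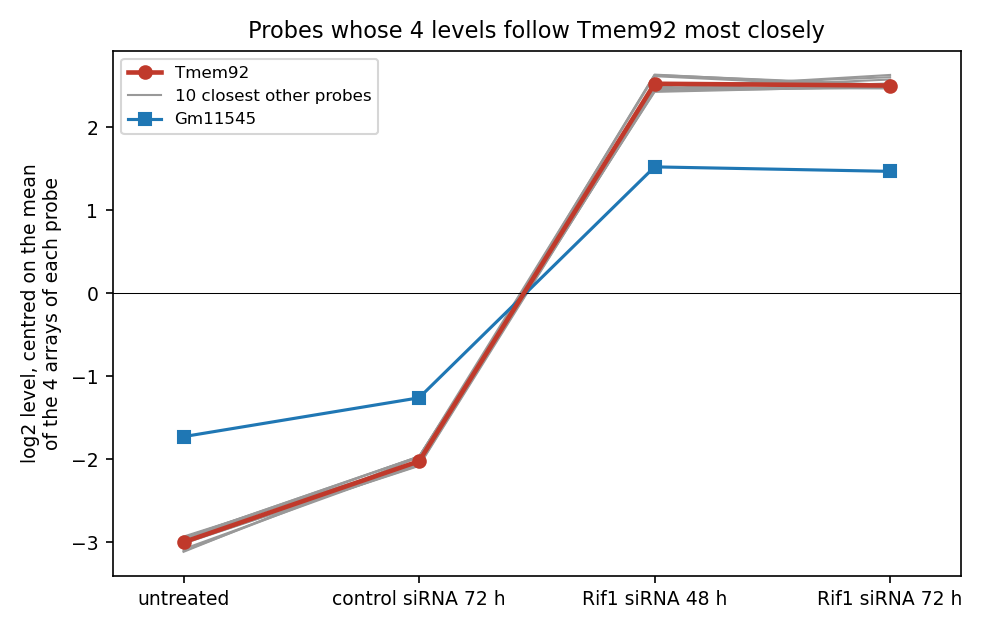
Log2 level on each of the 4 arrays, centred on each probe's own mean, for Tmem92 (red), the 10 probes closest to it (grey) and Gm11545 (blue). The grey lines run on top of Tmem92, within a root mean square difference of 0.0793, and Gm11545 has the same shape with a smaller step.

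Other 2C genes gave a background for the members. A list of 30 of them, chosen with these data known, had probes for 27, and its 41 probes passed the filter. At 72 h 33 were over 2-fold higher, beside 2.82% of the array, and 0 were lower. The list's median log2 difference was 4.30 over 33 measured probes. Tcstv3 was highest at 34.8-fold, from 0.0838 with control siRNA to 2.92 at 72 h. The lowest was a Tdpoz1 probe at 0.549-fold, at 0.0443 with control siRNA and 0.0243 at 72 h. In untreated cells that probe was dim at 0.00501, and at 72 h it was at least 1.03-fold higher than there. Another Tdpoz1 probe went the other way, dim with control siRNA and at least 1.44-fold higher at 72 h and at least 1.66-fold at 48 h. Of the Dux probes, one was detected with control siRNA and was at 1.30-fold (0.0219 to 0.0285), and the other was dim there and at least 2.38-fold higher at 72 h and at least 2.74-fold at 48 h. The 5 measured members ran from 6.63-fold to 23.1-fold, where this list ran from 0.549-fold to 34.8-fold. So wide a range, of genes chosen with these data known, cannot show whether the members are like the list. Against untreated cells 10 of the 41 list probes were over 2-fold higher with control siRNA, where 0.584% of the array was. The median log2 difference of the list was 0.87 over 27 measured.

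Markers of other cell types were read beside those of ES cells, as list sums that are compared between arrays only and in which bright probes weigh most. Per the study's methods the E14tg2a cells grew on gelatin with no feeder cells. The 13 probes of 8 ES cell markers, among them Pou5f1 and Nanog, had 0 over 2-fold, and their summed level was 232 to 249 on the 4 arrays. Their median log2 difference from control siRNA was 0.04 at 72 h. Pou5f1 was 1.51-fold at 72 h, and the Nanog probes were 1.37-fold, 1.22-fold and, for the faintest, 0.618-fold. The 5 fibroblast probes had 0 over 2-fold at either time, but most were higher on the Rif1 siRNA arrays than with control siRNA, with a median log2 difference of 0.82 at 72 h and 0.54 at 48 h over 4 measured probes. At 72 h Col1a1 was 1.76-fold, Col1a2 1.77-fold, Acta2, a smooth muscle actin, 1.89-fold and Thy1, a surface glycoprotein, 1.04-fold, and Col3a1 was dim in control siRNA cells with a bound of at least 1.26-fold. Their sums were 5.53, 4.69, 6.21 and 6.15, and Thy1 alone read 3.50, 3.11, 3.43 and 3.24. Primitive endoderm and neural markers also had 0 over 2-fold against control siRNA. The endoderm sums were 2.18, 1.59, 1.81 and 1.33. Of 7 trophoblast probes 2 were over 2-fold higher at 72 h and 1 at 48 h, and their sums were 0.376, 0.309, 0.557 and 0.520. Those over 2-fold were Gata3, a trophoblast transcription factor, at 0.0674, 0.0517, 0.186 and 0.148 (2.86-fold at 72 h, 3.6-fold at 48 h), and Cdx2, another, at 0.0344, 0.0500, 0.0721 and 0.106 (2.11-fold at 72 h, 1.44-fold at 48 h). The part of these differences in the cluster's levels was not tested.

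RefSeq windows from 250 bases before to 50 after a gene's start (GRCm38.p6) were given for 3 of the 6 members, Gm11543, Gm11545 and Gm11546. They were searched on both strands for the palindromic site of the double homeodomain factor Dux and for TGCACAC, a repeat bound by Zscan4 proteins. TATAAA, one form of the TATA box, was searched for as well, and variants of the motifs were not. The motifs do not overlap one another in these windows. The Dux site was in 0 of the 3 and in 0.0335% of 32851 windows, and TATAAA in 0 of the 3 and in 13.6%. TGCACAC was in 1 of the 3, Gm11546, at position -209 from the start, and in 4.40% of all windows. These letters say nothing of binding.
The stretch around the Gm11546 match, and its counterpart in Gm11543, are shown because these windows are near copies of each other (capitals mark TGCACAC, minus strand).
Gm11546 (chr11:94798402-94798430): cccctggtttTGCACACctccctgattta
Gm11543 (chr11:94829555-94829584): cccctggtttccccacaccgacctgattta
Over 277 aligned bases the Gm11543 and Gm11546 windows had 249 identical, or 89.9%, with a longest shared run of 61. Gm11545 had no run over 8 bases in common with either. The starts used for Gm11543 and Gm11546 lie 2.65 and 3.82 kb inside their gene models, so these windows need not be promoters. The start of Gm11545 lies 0.014 kb inside its model. The 250 bases before it (chr11:94761183-94761432, minus strand), which hold none of the motifs as written, are as follows.
Gm11545: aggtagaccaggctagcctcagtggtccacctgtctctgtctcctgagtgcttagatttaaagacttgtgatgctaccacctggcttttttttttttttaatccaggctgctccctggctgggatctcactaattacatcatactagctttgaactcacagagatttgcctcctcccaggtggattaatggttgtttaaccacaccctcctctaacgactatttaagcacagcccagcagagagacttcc
Gm11543 and Gm11546 thus have closely similar windows, while their probes share no run longer than 8 bases with any other member probe.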

How the data were processed

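Labelled RNA of each of the 4 samples was hybridised by the authors to a one-colour Agilent mouse expression array on 1 slide and read with Feature Extraction 11.5.1.1 at its default settings. The deposited scanner files give the processed signal intensity of each spot with its software error. The deposited value table holds, as the values show, the same signals as a ratio to each array's 75th percentile, on a linear scale.

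Control spots (43020 others remained) and spots flagged as outliers were left out, repeated probes were averaged, and each signal was divided by the array's 75th percentile (1487, 1513, 1610 and 1605 for untreated, control siRNA, 48 h and 72 h). The share of probes well above background was 58.8, 62.8, 71.5 and 74.1%, and 0 spots were saturated. Repeated spots varied by a median SD of 0.06 to 0.07 (log2) on each array. A probe passed the filter at or above the 20th percentile on 1 array and with detection on at least 2; 27739 did. A dim side was set to the higher of its own level and the array's lowest level well above background. Called means over 2-fold. Normexp (offset 50) and quantile alternatives used limma 3.58.1 in R 4.3.3, and other steps Python 3.11.15. The code was tested on simulated data. The named genes were all members, Rif1, probes between them, the nearest detected gene on each side, any neighbour over 2-fold, the extremes of the list of other 2C genes and the 10 probes most like Tmem92; the Dux probes and the cell type markers given singly were named after their values were seen. The members and lists were chosen with earlier results of these data known. The number of arrays limits the precision.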

Additional observations from a re-analysis of the deposited data

How the results depend on the processing

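Of 193 comparisons of a value with its alternative under 9 settings, 142 stayed within 0.256 log2 (the SD over all probes of the control siRNA difference from untreated cells, taken from 1 array each) or within 1.5 times a count, 51 moved and 0 changed sign. Restricting to probes well above background on all arrays left 2 members over 2-fold at 72 h and 2 at 48 h, since fewer were tested. The members' median log2 difference was 2.94 at 72 h and 3.0 at 48 h with normexp, 4.72 and 4.77 with untreated cells as the reference, and 4.15 and 4.17 with dim signals as given. Of control siRNA against untreated cells, 1 member passed 2-fold with quantile normalization (Tmem92, 2.01-fold) and 1 with dim signals as given (Gm11543, 2.17-fold). The neighbour over 2-fold at 72 h became 0 with normexp, quantile normalization, untreated cells as the reference, the stricter filter and a 4-fold threshold. The causes were not tested. The other counts of member probes against control siRNA were 6 or 7, with 6 of 7 under normexp at each time and at 4-fold at 72 h. The normexp count at 72 h includes the second Gm11544 probe, whose bound was 2.0025-fold. No share over the whole array was taken under these settings, so nothing is read from these counts. The count of 72 h against 48 h was 0 under each setting run for it. The deposited table, no filter and outlier spots kept moved no value. No paired analysis was possible because each group had 1 array. Dim signals limit Gm11546 and the second Gm11544 probe to bounds, and no sequence of the member proteins and no alignment of them was used here.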
